A study of Mus musculus with 4 samples.

Results

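The 10 genes described here make, degrade or sense histamine, a substrate of Oct3 besides norepinephrine (NE), or mark the mast cells that store it. They were taken by symbol from an RNA sequencing table of 19030 genes, and all 10 were found. They are *Hdc* for synthesis, *Hnmt* for breakdown, the receptor genes *Hrh1* and *Hrh2*, the granule protease genes *Cpa3*, *Mcpt4*, *Cma1* and *Tpsb2*, and the surface receptor genes *Kit* and *Ms4a2*.

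The libraries were made from inguinal WAT (ingWAT), the white fat under the skin of the groin, of male C57BL/6 mice aged 3 months and kept at 4°C. In Ctrl mice, whose labels read Control, *Oct3* was flanked by loxP sites, and in cKO mice, labelled Oct3 deficient, an Adiponectin-Cre transgene was added, which deletes the floxed gene in adipocytes and not in mast cells. There were 2 libraries of each genotype, with the number of mice behind each not stated, so that p-values measure the spread between these libraries only. *Slc22a3*, the gene for Oct3, had 16.95 and 17.68 FPKM (a read level scaled to transcript length and library size) in Ctrl and 9.07 and 9.50 in cKO, a log2 fold change of -0.83 (limma with Benjamini-Hochberg adjustment, adjusted p = 0.00044). From the steps between low FPKM values, each library was estimated to hold 17450000 to 18250000 reads. Markers of other cell types differed between the genotypes as well, while of all genes tested 13.8% fell and 12.0% rose. All 6 tested skeletal muscle genes fell, from a summed level of 1231 to 1848 FPKM in Ctrl to 6.21 to 7.39 in cKO, and all 4 B cell genes rose. Of the 6 muscle genes, 4 had a mean under 1 FPKM in cKO and were tested through their Ctrl level. Adipocyte genes were the most abundant of the marker lists, with a summed level of 16510 to 19920 FPKM.

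Histamine is made from histidine in a single step by histidine decarboxylase, the product of *Hdc*, and mast cells pack it into granules together with proteases bound to heparin. Released histamine acts on G protein-coupled receptors of vessels, smooth muscle and other cells. Inside cells, histamine is ended by the methyltransferase that *Hnmt* encodes, so that uptake by transporters such as Oct3 comes before this route of breakdown. In adipose tissue mast cells sit in the connective tissue between fat lobules and along vessels. Connective tissue mast cells of the mouse hold the chymases of *Mcpt4* and *Cma1*, the tryptase of *Tpsb2* and the carboxypeptidase of *Cpa3*. *Kit* encodes the receptor for stem cell factor, on which mast cells depend, and *Ms4a2* the β chain of the high-affinity receptor for IgE.

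The comparison of Ctrl with cKO asks whether the genes that handle histamine, and those of its main storing cell, differed when *Oct3* was removed from adipocytes. *Cpa3*, *Tpsb2* and *Hnmt* were lower in cKO, and no member was called higher. The changes were small, with cKO means at 0.734, 0.788 and 0.84 of the Ctrl means. *Hdc* had the opposite direction, with a cKO mean at 1.6 times the Ctrl mean, and did not pass. Of the 10 members, 8 had a mean of at least 1 FPKM over the 4 libraries and were tested with limma on log2(FPKM + 1), with Benjamini-Hochberg adjustment over all 12658 such genes and a threshold of 0.05 on the adjusted p. Of these 8, 3 were called lower and 0 higher, against 13.8% of all genes tested called lower and 12.0% called higher. At an unadjusted p under 0.05, 4 of the 8 were lower and 1 was higher. The median log2 fold change of the 8 was -0.21, beside -0.006 over all genes tested. Either way, 3 of 8 were called, against 25.8% of all genes tested. Without regard to the test, both cKO values were under both Ctrl values in 7 of the 10 members and over them in 2, while 29.9% of all genes in the table were under and 26.1% over. The groups thus did not overlap in 9 of 10 members, against 56.0% of all genes.

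**Figure D1:**
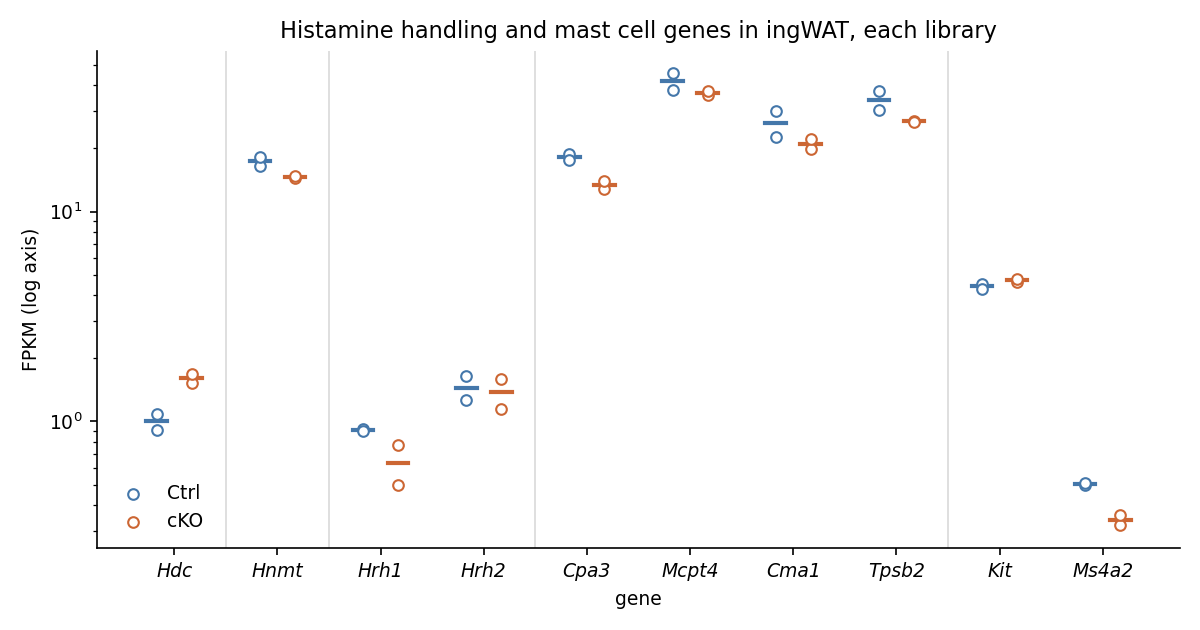
FPKM of the 10 members (log axis) in each library, with open points for libraries, horizontal lines for the mean of the 2 libraries of a genotype, blue for Ctrl and orange for cKO, and thin vertical lines between roles. The 4 protease genes lie lower in cKO, *Hdc* and *Kit* lie higher, and the points of *Hrh2* overlap.

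Of the granule protease genes, *Cpa3* and *Tpsb2* fell in cKO, and the 2 chymase genes had lower values that did not pass. *Cpa3*, for the carboxypeptidase that trims peptides and toxins after release, had 18.81 and 17.61 FPKM in Ctrl and 12.75 and 13.98 FPKM in cKO. Both cKO libraries stood clear of both Ctrl libraries. Its log2 fold change was -0.42 ± 0.072 (SE), with a Benjamini-Hochberg adjusted p of 0.0065 in limma. In whole tissue, fewer mast cells and less of this RNA in each mast cell cannot be told apart.

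*Tpsb2*, for the tryptase that forms tetramers on heparin, had 37.55 and 30.62 FPKM in Ctrl and 27.00 and 26.72 FPKM in cKO. The cKO libraries were close together and below both Ctrl libraries, which differed more from each other. Its log2 fold change was -0.33 ± 0.094 (SE), with a Benjamini-Hochberg adjusted p of 0.042 in limma.

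*Mcpt4*, for the main chymase of connective tissue mast cells, was the most abundant member, with 45.55 and 38.15 FPKM in Ctrl and 35.73 and 37.68 FPKM in cKO. The highest cKO and the lowest Ctrl library were almost level. The log2 fold change of *Mcpt4* was -0.18, with a 95% interval from -0.39 to 0.03 (limma, adjusted p = 0.18). *Cma1*, for a second chymase, had 30.25 and 22.66 FPKM in Ctrl and 19.93 and 22.25 FPKM in cKO. Here too the cKO libraries lay only just below the lower Ctrl library. Its log2 fold change was -0.30 with an interval from -0.60 to -0.001 (limma, adjusted p = 0.13).

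The 2 Ctrl libraries did not hold equal amounts of these RNAs. Ctrl replicate 1 held 1.34 times as much *Cma1*, 1.23 times as much *Tpsb2* and 1.19 times as much *Mcpt4* as replicate 2, but 1.07 times as much *Cpa3*. The 4 protease genes summed to 132.2 and 109.0 FPKM in Ctrl and to 95.41 and 100.6 FPKM in cKO. Without Ctrl replicate 1 the log2 fold change of *Cpa3* was -0.37 and lost its call (adjusted p = 0.083), and that of *Tpsb2* was -0.18 (adjusted p = 0.20). *Tpsb2* also lost its call without cKO replicate 1 (adjusted p = 0.14) and without cKO replicate 2 (adjusted p = 0.14), at -0.33 and -0.32. Without Ctrl replicate 2, *Cma1* was called lower at -0.50 (adjusted p = 0.034) and *Mcpt4* stood at -0.30 (adjusted p = 0.064). Without Ctrl replicate 1, *Cma1* stood at -0.10 and *Mcpt4* at -0.05. Of all members, none was called without Ctrl replicate 1 (2 lower at an unadjusted p under 0.05), while *Cpa3* alone was called without either cKO library. Without Ctrl replicate 2 *Cpa3*, *Tpsb2* and *Cma1* were called. These p-values are from limma with Benjamini-Hochberg adjustment. Each of these fits left 1 library in a genotype, and fewer genes were called over all genes tested too. Lost calls are thus not particular to the members.

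The ratio of *Mcpt4* to *Cpa3* was 2.42 and 2.17 in Ctrl and 2.80 and 2.70 in cKO, and that of *Kit* to *Cpa3* was 0.24 in both Ctrl libraries and 0.36 and 0.34 in cKO. Both ratios were higher in both cKO libraries than in either Ctrl library, which was not tested. They follow from the values above, since *Cpa3* was the tested member that fell most. The ratio of *Mcpt4* to *Kit* was 10.1 and 8.91 in Ctrl and lower in cKO, at 7.70 and 7.87. The tested genes closest to the pattern of *Cpa3*, by the Euclidean distance of log2(FPKM + 1) deviations over the 4 libraries, were *Scarb1* at 0.0081, *Mmp14* at 0.011 and *Mctp1* at 0.02.

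The bases before the start sites of protease genes are shown because these genes are read as a group, next to those of *Hdc*, whose values went the other way. RefSeq promoter windows on GRCm38.p6, whose chromosomes are those of mm10, were given for 9 of the 10 members, and *Tpsb2* had none. The 250 bases upstream of the start lie on the minus strand for all 4 genes, at chr3:20242182-20242431 for *Cpa3*, chr14:56062311-56062560 for *Mcpt4*, chr14:55944676-55944925 for *Cma1* and chr2:126618679-126618928 for *Hdc*. They are written 5′ to 3′ in lower case. Matches to AGATAA or TGATAA on either strand, the words of the GATA motif that were searched, are in capitals.
Cpa3: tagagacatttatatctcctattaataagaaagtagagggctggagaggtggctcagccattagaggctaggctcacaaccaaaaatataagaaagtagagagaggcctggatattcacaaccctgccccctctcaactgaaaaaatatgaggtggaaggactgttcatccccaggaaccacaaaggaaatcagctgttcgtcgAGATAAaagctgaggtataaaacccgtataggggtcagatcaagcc
Mcpt4: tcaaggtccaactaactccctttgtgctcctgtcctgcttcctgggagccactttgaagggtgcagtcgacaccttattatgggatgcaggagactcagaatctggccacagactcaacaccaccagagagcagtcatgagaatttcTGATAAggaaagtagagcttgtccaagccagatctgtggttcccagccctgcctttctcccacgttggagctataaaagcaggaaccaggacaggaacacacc
Cma1: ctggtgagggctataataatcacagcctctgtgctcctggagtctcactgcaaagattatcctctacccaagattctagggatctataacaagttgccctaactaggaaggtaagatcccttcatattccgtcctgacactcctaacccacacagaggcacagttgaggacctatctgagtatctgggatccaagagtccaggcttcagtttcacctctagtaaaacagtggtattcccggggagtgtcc
Hdc: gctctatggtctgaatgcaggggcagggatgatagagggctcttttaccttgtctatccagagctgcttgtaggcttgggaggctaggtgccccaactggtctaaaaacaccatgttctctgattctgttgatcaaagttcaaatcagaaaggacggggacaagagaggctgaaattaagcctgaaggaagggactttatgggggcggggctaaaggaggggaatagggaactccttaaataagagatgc
*Cpa3* holds 1 match, which begins 46 bases before the start, and *Mcpt4* 1, which begins 103 bases before it. *Cma1* and *Hdc* hold neither word in these windows. Words of the motif that end in G were not searched. Of those, TGATAG stands in the *Hdc* window and AGATAG, on the other strand, in that of *Cma1*. The *Hdc* window lies inside the annotated span of its gene, before a start within it, and the *Cpa3* window partly overlaps its gene. Among the 9 members with a window, 4 held a match in at least 1 window, namely *Cpa3*, *Mcpt4*, *Ms4a2* with 3 matches and *Hrh1*, against 18.8% of all 27025 genes with a window. By window, 6 of the members' 14 held a match, of which *Hrh1* gave 3, against 16.6% of all 32851 windows of this length. The E-box words CACGTG and CATGTG, bound by Mitf, occurred in 17.6% of all windows and, among the members, in 1 of 14, a window of *Hrh1*. *Gata2*, for a GATA factor of mast cells, had 5.58 and 5.13 FPKM in Ctrl and 4.26 and 4.44 in cKO, both cKO libraries lower, with a log2 fold change of -0.25 that did not pass (limma, adjusted p = 0.07). For *Mitf*, a transcription factor that mast cells and pigment cells need, values were 3.08 and 2.39 FPKM in Ctrl and 2.15 and 1.97 FPKM in cKO (log2 fold change -0.28, limma, adjusted p = 0.13).

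Reads of close relatives could be shared between genes. Of the windows of 50 bases in the transcripts, the length of a read, 5.48% of those of *Mcpt4* also occur in *Cma2* or *Mcpt9*, and 5.46% of those of *Cma1* in the gene *Gm48934*, which has no row in the table. For *Ms4a2* the share was 2.13%, with *Ms4a4b*. For *Tpsb2*, *Cpa3*, *Hdc*, *Hnmt*, *Kit* and both histamine receptor genes this share was 0. *Cma2* and *Mcpt9* had at most 0.13 FPKM in any library. On GRCm38.p6, *Mcpt4* at chr14:56059744-56062310 and *Cma1* at chr14:55941451-55944675 lie on the same chromosome in a cluster of proteases. *Tpsb2* lies at chr17:25366308-25368096 and *Cpa3* at chr3:20215616-20242209. *Hdc* at chr2:126593659-126624025 and *Hnmt* at chr2:24002911-24049758 are far apart on chromosome 2, and *Hrh1* lies at chr6:114397936-114483298, *Hrh2* at chr13:54191970-54236182, *Kit* at chr5:75574987-75656722 and *Ms4a2* at chr19:11615517-11623790.

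Of the surface receptor genes *Kit* did not pass and *Ms4a2* was too low for the test. *Kit* had 4.51 and 4.28 FPKM in Ctrl and 4.64 and 4.79 FPKM in cKO. Both cKO libraries were above both Ctrl libraries by little, and the log2 fold change was 0.08 with an interval from -0.11 to 0.28 (limma, adjusted p = 0.50). *Kit* is known also from melanocytes and epithelial progenitors. Of 5 melanocyte genes 1 was tested and none passed (limma, 0 at an unadjusted p under 0.05), with summed levels of 2.38 to 3.29 FPKM in Ctrl and 2.05 to 2.71 FPKM in cKO, and epithelial genes summed to at most 0.72 FPKM. *Ms4a2* had 0.50 and 0.51 FPKM in Ctrl and 0.32 and 0.36 FPKM in cKO, which at the estimated depth stood for about 11.7 and 11.8 reads in Ctrl and 7.2 and 8.03 in cKO. With every gene in the table tested, its log2 fold change was -0.17 (limma, adjusted p = 0.10). *Fcer1a*, for the α chain that binds IgE, went from 0.44 to 1.23 FPKM between the 2 Ctrl libraries and from 1.04 to 0.40 between the 2 cKO libraries, so that its values gave no direction.

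The synthesis gene *Hdc* had low values, 0.91 and 1.09 FPKM in Ctrl and 1.52 and 1.69 FPKM in cKO. Both cKO libraries were above both Ctrl libraries. These values stood for about 39.1 and 46.6 reads in Ctrl and 63 and 69.5 in cKO. The log2 fold change was 0.38 ± 0.12 (SE), with a Benjamini-Hochberg adjusted p of 0.057 in limma. On this scale the pseudocount of 1 holds the fold change of low genes down, and with 0.1 in its place it was 0.64 (limma, adjusted p = 0.066). *Hdc* did pass with median-of-ratios scaling (adjusted p = 0.049), quantile normalization (adjusted p = 0.031) and eBayes without a trend (adjusted p = 0.023). The ratio of *Hdc* to *Cpa3* was 0.048 and 0.062 in Ctrl and 0.12 in both cKO libraries.

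Cells other than mast cells, among them neutrophils and basophils, are known to express *Hdc*. Of 11 neutrophil genes in the table, 6 were tested, of which 5 rose and *Mmp9* fell. The shares called over all genes tested were 12.0% higher and 13.8% lower. The list summed to 26.63 to 29.5 FPKM in Ctrl and 39.15 to 40.6 FPKM in cKO. *S100a8*, for a subunit of calprotectin and 1 of the 5, rose from 3.49 and 3.26 FPKM to 9.52 and 10.06 FPKM. *Retnlg*, another of the 5, had 0.72 and 1.08 FPKM in Ctrl and 2.39 and 1.58 FPKM in cKO and reached the level for the test only through the cKO libraries. The lineage marker *Ly6g* was at 0 in 1 library of each genotype and at 0.06 FPKM in the other. None of the 4 basophil genes found reached the level for a test, with sums of 1.36 to 2.18 FPKM in Ctrl and 1.44 to 1.59 FPKM in cKO, and *Mcpt8* had no row. The part of these cells in the level of *Hdc* was not tested.

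**Figure D2:**
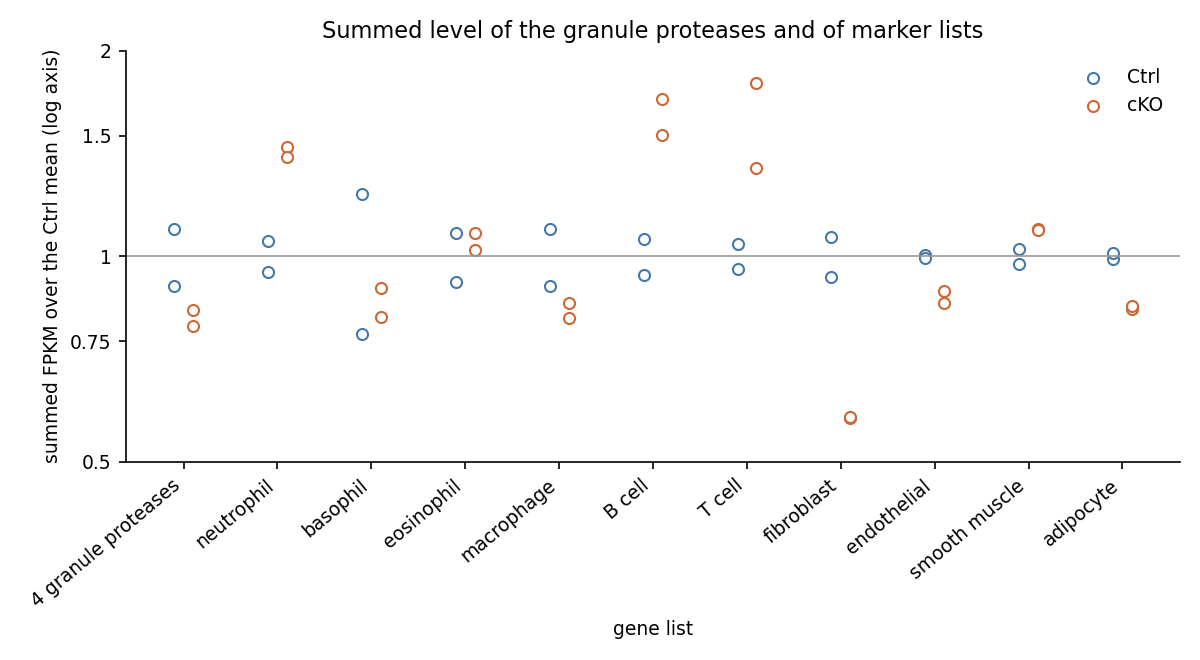
Summed FPKM of the 4 granule protease genes and of marker lists in each library, divided by the mean of the Ctrl libraries (log axis), with blue for Ctrl and orange for cKO. The protease sum lies lower in cKO, as do fibroblast, macrophage, endothelial and adipocyte sums, while neutrophil, B cell and T cell sums lie higher. The adipocyte sum is mostly *Fabp4*, which did not pass. Skeletal muscle is left out because its cKO sums of 6.21 and 7.39 FPKM would fall far below the axis.

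Other lists differed as well, in either direction, while 13.8% of all genes tested were called lower and 12.0% higher. Of 6 fibroblast genes 5 fell, with sums of 970.5 to 1110 FPKM in Ctrl and 601.5 to 605.3 FPKM in cKO, and of 6 endothelial genes 3 fell and 3 did not pass. Of 6 adipocyte genes *Adipoq* and *Lep* fell and 4 did not pass. Among these 4 was *Fabp4*, which made up most of the adipocyte sum, with 15874.02 and 16397.84 FPKM in Ctrl (limma, adjusted p = 0.23). Of 5 smooth muscle genes *Acta2* rose and the other 4 did not pass, with sums of 66.12 to 69.56 FPKM in Ctrl and 74.13 to 74.39 FPKM in cKO. Of 8 macrophage genes 5 fell and *Cd68* rose, with sums of 621.4 to 752.5 FPKM in Ctrl and 558.4 to 586 FPKM in cKO. Ctrl replicate 1, which held the higher protease levels, also held the higher skeletal muscle, fibroblast, macrophage, neutrophil, smooth muscle, eosinophil, melanocyte and endothelial sums. Its B cell, T cell, basophil, epithelial and adipocyte sums were lower than those of Ctrl replicate 2. In Ctrl, *Mmp9* alone gave 15.23 and 11.95 FPKM of the neutrophil sums of 29.5 and 26.63. *Ear2* gave 12.16 and 10.39 FPKM of the eosinophil sums of 13.49 and 11.43. None of these lists had a gene at 0 in every library. Their part in the protease values was not tested.

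The breakdown gene *Hnmt* fell in cKO, from 16.44 and 18.21 FPKM in Ctrl to 14.41 and 14.71 FPKM. The 2 genotypes did not overlap. Its log2 fold change was -0.23 ± 0.071 (SE), with a Benjamini-Hochberg adjusted p of 0.049 in limma, close to the threshold, and the call was lost without any 1 of the 4 libraries (adjusted p from 0.094 to 0.26). It was also lost with median-of-ratios scaling (adjusted p = 0.061), as was that of *Tpsb2* (adjusted p = 0.064). The ratio of *Hnmt* to *Hdc* was 18.1 and 16.7 in Ctrl and 9.48 and 8.70 in cKO.

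Of the histamine receptor genes *Hrh2* did not pass and *Hrh1* was too low for the test. *Hrh2*, for the receptor that couples to cAMP, had 1.26 and 1.64 FPKM in Ctrl and 1.15 and 1.60 FPKM in cKO. The groups overlapped, and the log2 fold change was -0.05 with an interval from -0.39 to 0.30 (limma, adjusted p = 0.84), which turned positive with quantile normalization (0.02), without Ctrl replicate 2 (0.07) and without cKO replicate 1 (0.09). *Hrh1*, for the receptor that couples to calcium release, had 0.92 and 0.90 FPKM in Ctrl and 0.77 and 0.50 FPKM in cKO, about 51.3 and 49.9 reads against 41.4 and 26.6. With every gene tested its log2 fold change was -0.23 (limma, adjusted p = 0.24). *Hrh3* had no row and *Hrh4* had at most 0.14 FPKM, so of the 4 receptor genes only *Hrh2* was above 1 FPKM in every library.

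In order of mean FPKM, *Mcpt4* led in both genotypes at 41.9 ± 5.23 FPKM in Ctrl and 36.7 ± 1.38 FPKM in cKO (SD over 2 libraries), followed by *Tpsb2* and *Cma1*. In Ctrl *Cpa3* and *Hnmt* came next with overlapping libraries, and in cKO *Hnmt* stood above *Cpa3*. *Kit* was in the sixth place in both. In Ctrl *Hrh2* stood above *Hdc*, whose libraries overlapped those of *Hrh1*, and in cKO *Hdc* and *Hrh2* overlapped. *Ms4a2* was lowest in both. The levels of the proteases lay between percentiles 76.8 and 89.7 of all genes in the table, and those of *Hdc* and *Hrh2* at 35.9 and 36.8.

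**Figure D3:**
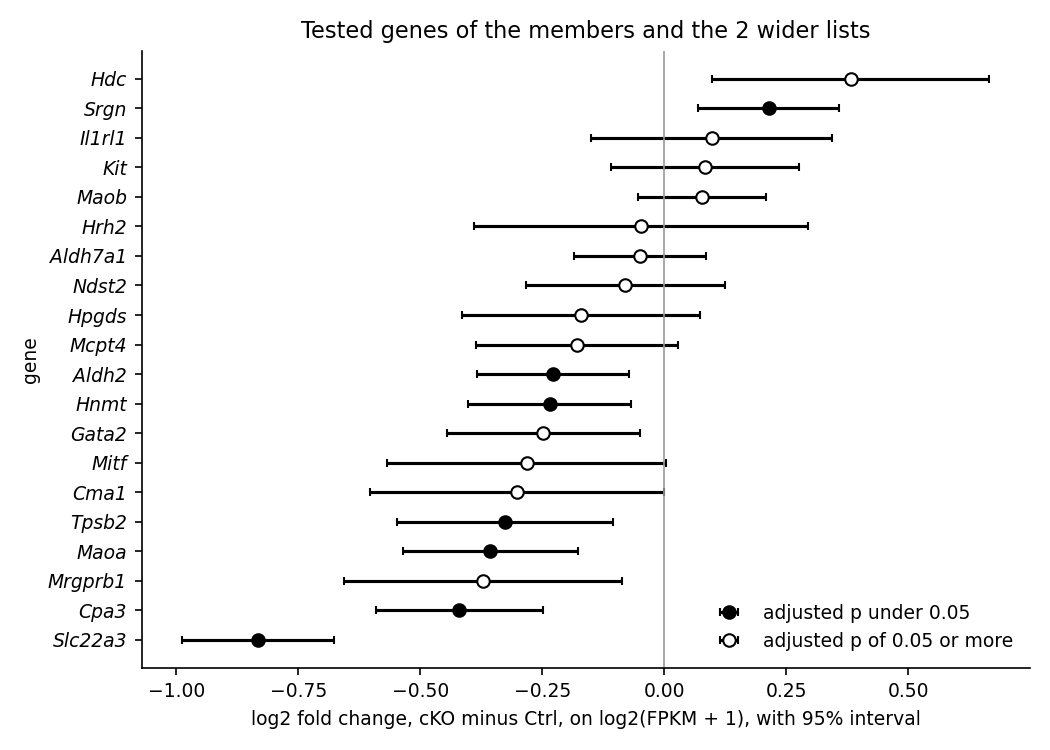
Log2 fold change of cKO against Ctrl on log2(FPKM + 1) for the tested genes among the members and the 2 wider lists, with 95% intervals from limma. Filled points have an adjusted p under 0.05. *Slc22a3* has the lowest value at -0.83, followed by *Cpa3* at -0.42, and *Hdc* has the highest at 0.38.

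The wider histamine pathway held 17 genes, of which 16 were in the table and 8 were tested. Of these 4 fell and 0 rose (limma, 1 higher at an unadjusted p under 0.05), with a median log2 fold change of -0.14, against 13.8% of all genes tested called lower and 12.0% called higher. One of the 4 is *Slc22a3* itself, the gene deleted by design. The others were *Hnmt*, *Maoa* and *Aldh2*. *Maob*, for the oxidase that acts on methylated histamine, had 33.57 and 33.50 FPKM in Ctrl and 36.05 and 34.84 in cKO and did not pass (log2 fold change 0.08, limma, adjusted p = 0.35). *Maoa*, for the other monoamine oxidase, fell from 7.77 and 8.22 FPKM to 5.86 and 6.19 FPKM (log2 fold change -0.36, limma, adjusted p = 0.014). *Aldh2*, for an aldehyde dehydrogenase that can act on the product, fell from 443.75 and 433.34 FPKM to 386.99 and 361.74 FPKM (log2 fold change -0.23, limma, adjusted p = 0.043). *Aldh7a1*, for another aldehyde dehydrogenase, had 21.89 and 21.64 FPKM in Ctrl and 21.09 and 20.91 FPKM in cKO (log2 fold change -0.05, limma, adjusted p = 0.57). *Aoc1*, for diamine oxidase, which degrades histamine outside cells, had 0.10 FPKM in both Ctrl and 0.22 FPKM in both cKO libraries.

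Among transporters, *Slc22a3* was the most abundant, and *Slc22a2*, for Oct2, had 0.44 and 0.60 FPKM in Ctrl and 0.76 and 0.84 FPKM in cKO, too low for the test. *Slc29a4*, for the plasma membrane monoamine transporter, stood at 0.07 to 0.30 FPKM. *Slc18a2*, for the vesicular transporter that loads histamine into granules, had 0.87 and 0.92 FPKM in Ctrl and 0.72 and 0.78 FPKM in cKO. *Hal*, for the enzyme that competes for histidine, had at most 0.23 FPKM. Without 1 library the number called in this list was 1 to 2, with 1 when either Ctrl library was left out and 2 when either cKO library was.

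Of 19 other mast cell genes, 18 had a row and 7 were tested. Of these 1 rose and 0 fell (limma, 2 lower at an unadjusted p under 0.05), with a median log2 fold change of -0.17. By comparison, 12.0% of all genes tested were called higher and 13.8% lower. *Srgn*, for the granule proteoglycan serglycin, which many leukocytes also make, rose from 87.78 and 88.07 FPKM to 98.04 and 106.41 FPKM (log2 fold change 0.21, limma, adjusted p = 0.042). It lost this call without Ctrl replicate 1, without Ctrl replicate 2 and without cKO replicate 2, when no other gene of the list passed (limma, 0, 3 and 2 genes at an unadjusted p under 0.05). It also lost the call with no filter on low values (limma, adjusted p = 0.092) and with eBayes without a trend (adjusted p = 0.088), where *Mrgprb1* was instead called lower (adjusted p = 0.017). All 4 B cell and 4 of 5 T cell genes rose as well, with sums of 190.4 to 215.1 FPKM in Ctrl and 305.2 to 344.7 FPKM in cKO for B cell genes and of 62.75 to 68.27 and 88.28 to 117.4 FPKM for T cell genes. Their part in the level of *Srgn* was not tested. *Mrgprb1*, for a receptor of the Mas-related family, had 1.35 and 1.22 FPKM in Ctrl and 0.77 and 0.76 FPKM in cKO (log2 fold change -0.37, limma, adjusted p = 0.062), and reached the level for the test only through the Ctrl libraries. Its relative *Mrgprb2*, a receptor through which mast cells respond to basic peptides without IgE, had 0.66 and 0.81 FPKM in Ctrl and 0.53 and 0.39 FPKM in cKO. Counting every one of the 18 genes, tested or not, both cKO values were under both Ctrl values in 9 and over them in 2, while 29.9% of all genes in the table were under and 26.1% over.

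*Tpsab1*, for a tryptase that C57BL/6 mice are known not to make, had 0.10 to 0.42 FPKM. The proteases of mucosal mast cells were near 0, with *Mcpt2* at no more than 0.06 FPKM and *Mcpt1* without a row. *Il1rl1* for the receptor of IL-33, *Hpgds* for prostaglandin D synthesis and *Ndst2* for heparin sulfation did not pass, at log2 fold changes of 0.10, -0.17 and -0.08 (limma, adjusted p = 0.54, 0.27 and 0.54). *Tpsg1* and *Cyp11a1* stood at 0.63 and 0.49 and at 1.15 and 0.95 FPKM in Ctrl, and at 0.47 and 0.42 and at 0.69 and 0.75 FPKM in cKO. *Rab27b* stood at 0.20 FPKM in both Ctrl libraries and at 0.06 and 0.11 FPKM in cKO, and *Adora3* between 0.38 and 0.96 FPKM.

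**Figure D4:**
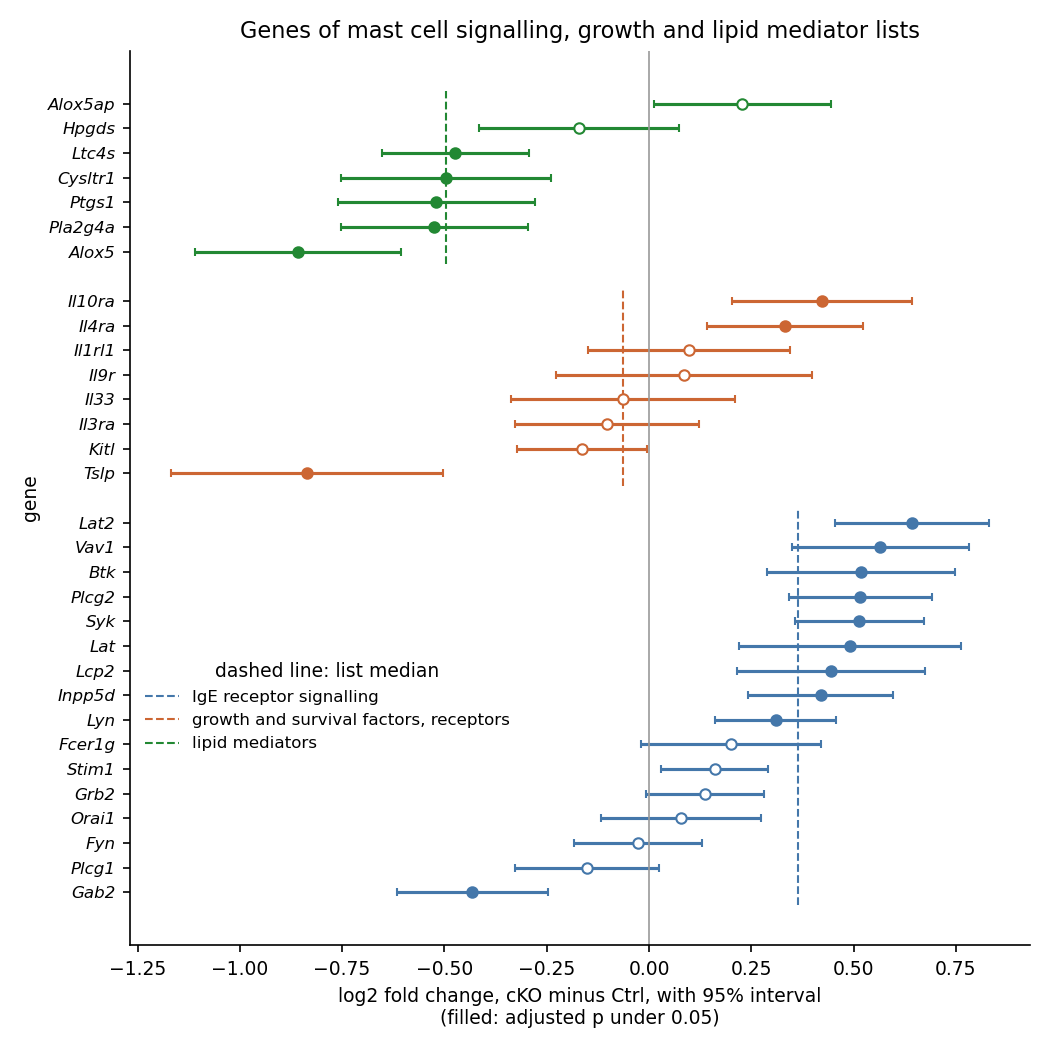
Log2 fold change of cKO against Ctrl on log2(FPKM + 1) with 95% intervals for tested genes of the lists for IgE receptor signalling (blue), growth and survival factors and their receptors (orange) and lipid mediators (green). Filled points have an adjusted p under 0.05, and dashed lines mark the medians of the whole lists, 0.36, -0.06 and -0.50, with 1 tested gene of the growth and survival list left out of the plot.

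Most called genes downstream of the IgE receptor were higher in cKO. Of 16 genes, all tested, 9 rose and *Gab2* fell, with a median of 0.36 on the log2 scale. By comparison, 12.0% of all genes tested were called higher and 13.8% lower. The largest rises were those of *Lat2*, for an adaptor of mast cells and B cells, from 8.34 and 8.24 to 14.41 and 12.65 FPKM (log2 fold change 0.64, limma, adjusted p = 0.0019), and of *Vav1*, from 7.14 and 7.88 to 10.73 and 12.49 FPKM (0.57, adjusted p = 0.0051). *Lat*, the adaptor that mast cells share with T cells, rose from 19.23 and 19.45 to 24.10 and 31.56 FPKM. *Fcer1g*, for the γ chain, had 70.94 and 58.33 FPKM in Ctrl and 76.21 and 72.08 FPKM in cKO and did not pass (log2 fold change 0.20, limma, adjusted p = 0.16), and neither did *Grb2* (0.14) nor *Stim1* (0.16). B and T cells use most of these genes, and the sums of their own markers given above rose in the same libraries, a part that was not tested. Without Ctrl replicate 1 the number called was 2, and without Ctrl replicate 2 it was 6.

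Among growth and survival factors and their receptors, 9 of 11 genes found were tested, of which 2 rose and 2 fell. Calls in either direction made up 25.8% of all genes tested. *Tslp*, for an epithelial and stromal cytokine, fell from 2.92 and 2.09 to 0.98 and 0.92 FPKM (log2 fold change -0.84, limma, adjusted p = 0.006). The cKO libraries of *Tslp* were under 1 FPKM, so that this gene was tested through its Ctrl level. *Kitl*, for the ligand of Kit, had 10.63 and 11.19 FPKM in Ctrl and 9.68 and 9.58 FPKM in cKO and did not pass (log2 fold change -0.16, limma, adjusted p = 0.12). The receptor genes *Il4ra* and *Il10ra* rose, by log2 fold changes of 0.33 and 0.42, and *Il3ra* stood at -0.10. Without Ctrl replicate 1 none passed (limma, 4 at an unadjusted p under 0.05), and without Ctrl replicate 2 or cKO replicate 2 the number called was 1.

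Of 11 genes for lipid mediators of mast cells and their receptors, 7 were tested. Of these 5 fell and 0 rose (limma, 1 higher at an unadjusted p under 0.05), with a median log2 fold change of -0.50. By comparison, 13.8% of all genes tested were called lower and 12.0% higher. *Alox5*, the lipoxygenase that starts leukotriene synthesis, fell from 4.82 and 4.41 to 2.32 and 1.89 FPKM (log2 fold change -0.86, limma, adjusted p = 0.0019). *Ltc4s*, for leukotriene C4 synthase, fell from 93.82 and 81.48 to 63.73 and 61.71 FPKM (-0.47, adjusted p = 0.005), and *Ptgs1* and *Pla2g4a* fell by 0.52 on the log2 scale each. *Alox5ap* had 28.19 and 26.44 FPKM in Ctrl and 35.27 and 29.28 FPKM in cKO (0.23, adjusted p = 0.11). Macrophages are known to express these genes too, and 5 of 8 macrophage genes fell, as given above, a part that was not tested. Without Ctrl replicate 1 or Ctrl replicate 2 the number called was 2.

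**Figure D5:**
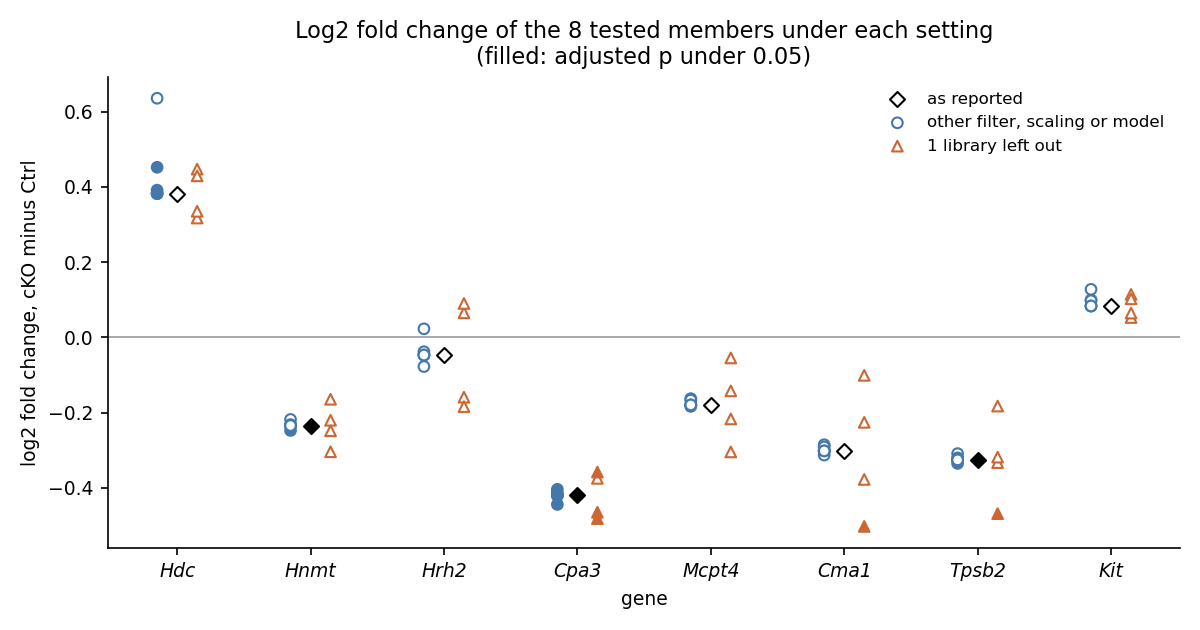
Log2 fold change of the 8 tested members as reported (diamonds), under another filter, pseudocount, scaling or model (circles) and with 1 library left out (triangles), filled where the adjusted p was under 0.05. *Cpa3* keeps its call in 10 of 11 alternatives, *Tpsb2* in 5 and *Hnmt* in 3, and *Hrh2* lies on both sides of 0.

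Across the 11 alternatives *Cpa3* ranged from -0.48 to -0.36 on the log2 scale and passed in 10, while *Tpsb2* passed in 5 and *Hnmt* in 3. *Hdc* could be fitted in 10 and passed in 3, always with a positive value, from 0.32 to 0.64. *Mcpt4* passed in 0 of 11 (limma, unadjusted p = 0.079 as reported) and *Kit* in 0 of 10 (unadjusted p = 0.34). The called direction of *Cpa3*, *Tpsb2* and *Hnmt* was the same in every alternative that was run.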

How the data were processed

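IngWAT of cold-exposed Ctrl and cKO mice was sequenced by the authors as polyadenylated RNA with 50-base single-end reads, 2 libraries of each genotype. The values deposited by the authors are FPKM per gene, with no scaling between libraries stated. The submitters' processing notes name HISAT2 2.0.4, RSEM 1.2.12 and mm10. Counts were not used here.

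Genes with a mean of at least 1 FPKM over the 4 libraries were compared after log2(FPKM + 1) transformation. The test was that of limma (version 3.58.1, R 4.3.3, eBayes with a trend, two-sided, Benjamini-Hochberg adjustment over 12658 genes). Simulated data had 200 genes changed by 1 log2 unit and the same spread for every gene. There the fit called the 200 and 14 unchanged genes. Changes as small as those of the members were not simulated. Depth was estimated from the FPKM of short RNA genes of at most 400 bases, with 36 bases taken off each length. Between 82.2% and 86.8% of these values were whole reads within 0.1, a precision that does not give counts for longer genes. Estimated reads of a member use its mean transcript length in GENCODE. Other steps ran in Python 3.11.15, with tables in pandas 2.3.3, arrays in numpy 2.4.6 and plots in matplotlib 3.10.9. The members and lists were chosen with earlier results of these data known, and the motifs after the values were seen. Named are all members, all genes with a row in the histamine and the other mast cell list, and in further lists the 4 most abundant and the 2 with the largest called change, beside *Slc22a3* and the 3 genes most like *Cpa3*. *Gab2*, *Ly6g* and *Retnlg* were named after their values were seen. Marker lists are given by sums with single examples. Alternatives were no filter, a mean of at least 5 FPKM, a pseudocount of 0.1, median-of-ratios scaling, quantile normalization, eBayes without a trend, a replicate block and leaving out each library. No per-sample column was left unused. Single genes of the histamine and the growth factor list are counted in their lists and not reported here by name.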

Additional observations from a re-analysis of the deposited data

How the results depend on the processing

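The limits are the 2 libraries of each genotype, low levels of *Hdc*, *Hrh1* and *Ms4a2*, and calls close to the threshold. With no filter on low values the count called was 1 for the members (*Cpa3*), 1 in the histamine list, 0 among other mast cell genes, 6 for IgE receptor signalling, 2 for growth factors, 3 for lipid mediators, 2 for B cell, 0 for T cell, 3 for macrophage, 1 for melanocyte and 0 for smooth muscle genes, against 3, 4, 1, 10, 4, 5, 4, 4, 6, 0 and 1 as reported, with 19030 genes adjusted over in place of 12658. The histamine list gene called with no filter was *Slc22a3*, the gene deleted by design. In all genes tested 1762 were called with no filter and 3269 as reported. Requiring a mean of at least 5 FPKM left 2 called growth factor genes, 1 lipid mediator gene and 3 neutrophil genes, with fewer genes tested. Quantile normalization gave 4 adipocyte genes in place of 2, and eBayes without a trend 3 macrophage and 0 smooth muscle genes, and among other mast cell genes 1 lower (*Mrgprb1*) in place of 1 higher (*Srgn*). The cause of these last changes was not tested. The log2 fold change of *Hrh2* was 0.023 with quantile normalization and -0.18 to 0.090 without 1 library.

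Leaving out 1 library gave 0 to 3 called members, 1 to 2 histamine genes, 0 to 1 other mast cell genes, 2 to 10 IgE receptor signalling genes, 0 to 4 growth factor genes, 2 to 5 lipid mediator genes, 2 to 4 B cell, 0 to 5 T cell, 1 to 2 adipocyte, 1 to 3 endothelial, 3 to 5 fibroblast, 3 to 7 macrophage, 3 to 6 neutrophil and 0 to 0 smooth muscle genes. Over all genes tested 877 were called without Ctrl replicate 1, 1531 without Ctrl replicate 2 and 2165 without cKO replicate 1. Where T cell genes and smooth muscle genes were at 0 with no filter, 4 and 1 were higher at an unadjusted p under 0.05 in limma, as were 1 higher and 5 lower of the other mast cell genes. With the replicate number as a block 3 members were called, as without it, and 3383 of all genes. The numbers are not stated to pair the libraries, and the deviations of libraries with the same number correlated at 0.015 over the genes tested.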
